A study of Mus musculus with 6 samples.

Results

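The control line of this study was CT26, a mouse colorectal cancer cell line, stably carrying a control short hairpin RNA in the pSUPER gfp-neo vector. It was profiled on 1 miRNA array each at 24, 48 and 72 h. The series held 6 arrays in all. The other 3 came from CT26 cells carrying a hairpin against TGF-β1 in the same vector, at the same 3 times. They served to estimate the spread between arrays, were normalised together with the control arrays, and are described beside them where stated. All cells of both lines thus carried a hairpin vector, and untransfected CT26 cells are not analysed here. Per the labels, each culture was grown and harvested on its own. What the hours count from, and whether each line was 1 clone or a pool, are not given in the sources used here. A miRNA array does not read the TGF-β1 mRNA, so the knockdown itself could not be checked.

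The probes described are those for mouse miRNAs that reached 50 in background-subtracted intensity, as the mean of their spots, on 2 or all 3 of the control arrays. This kept 366 of 1126 mouse miRNA probes, called members below. Of these, 233 reached 50 on all 3 arrays and 133 on 2 only: the array missed was that of 48 h for 78, 72 h for 32 and 24 h for 23. Of the 760 left out, 81 reached 50 on 1 array and 679 on none. The same rule on the 3 knockdown arrays kept 335 probes, of which 302 were also members. Just inside the limit stood miR-1946b and miR-337-3p, each with a second highest intensity of 50, and miR-181b-1-3p with 50.25. Just outside it stood miR-669e-3p with 48, miR-30c-1-3p with 47 and miR-5620-3p with 46.75.

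MicroRNAs are short RNAs that guide Argonaute proteins to messenger RNAs, mainly through pairing of the seed, the bases near the 5′ end, with sites in the 3′ untranslated region. miRNAs with the same seed form a family with overlapping targets. In tumour cells miR-34 is known as a target of p53, miR-210 as induced by low oxygen and let-7 as a brake on growth genes such as Ras and Hmga2. An array probe reports the brightness of what binds to it. Brightness also depends on probe affinity and on how well an RNA is labelled, so an order of probes by intensity is an order of signals and not of molecule numbers.

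The sequences below are those on which the comparison of the 3 times turns, from RefSeq on build GRCm38.p6, 5′ to 3′, with the seed (bases 2 to 8) in capitals. First stand the let-7 family members, which share 1 seed and yet lay apart at 48 h, with let-7f-5p, whose probe stayed below 50 on all 3 control arrays.
let-7a-5p: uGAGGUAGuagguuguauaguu
let-7b-5p: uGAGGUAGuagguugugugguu
let-7c-5p: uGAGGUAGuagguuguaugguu
let-7d-5p: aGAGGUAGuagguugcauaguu
let-7e-5p: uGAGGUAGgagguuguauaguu
let-7f-5p: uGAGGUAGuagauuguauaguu
let-7g-5p: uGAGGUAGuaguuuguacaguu
let-7i-5p: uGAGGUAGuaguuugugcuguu
Next stand the members with the seeds of miR-15/16 and miR-17, none of which was higher at 48 h than at 24 h. miR-322-5p, with the miR-15/16 seed, is not among them, since its probe reached 50 at 48 h alone.
miR-15a-5p: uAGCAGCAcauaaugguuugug
miR-15b-5p: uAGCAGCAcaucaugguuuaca
miR-16-5p: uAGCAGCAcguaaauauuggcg
miR-195a-5p: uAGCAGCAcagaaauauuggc
miR-17-5p: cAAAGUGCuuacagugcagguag
miR-20a-5p: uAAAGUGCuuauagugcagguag
miR-93-5p: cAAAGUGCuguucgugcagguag
miR-106a-5p: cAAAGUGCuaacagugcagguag
miR-106b-5p: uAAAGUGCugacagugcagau
Last stand single miRNAs whose probes were among the brightest, or among the lowest or highest at 48 h relative to the other times.
miR-5100: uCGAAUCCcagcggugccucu
miR-125b-5p: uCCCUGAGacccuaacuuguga
miR-21a-5p: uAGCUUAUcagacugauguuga
miR-22-3p: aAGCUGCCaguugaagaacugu
miR-221-3p: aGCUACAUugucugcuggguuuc
miR-222-3p: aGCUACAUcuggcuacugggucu
miR-193b-3p: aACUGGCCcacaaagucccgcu

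Counted from 1 at the 5′ end of let-7a-5p, let-7c-5p differs from it by A19G alone, let-7e-5p by U9G alone and let-7f-5p by G12A alone. let-7b-5p differs by A17G and A19G, let-7d-5p by U1A and U16C, and let-7g-5p by G12U and U18C. let-7a-5p lies at chr13:48538239-48538260 on the minus strand in Mirlet7a-1, with let-7d-5p close by at chr13:48536078-48536099 in Mirlet7d. let-7g-5p lies at chr9:106178846-106178867 on the plus strand, within the span of the protein-coding gene Wdr82. miR-195a-5p lies at chr11:70235062-70235082 and miR-22-3p at chr11:75463772-75463793, both on the plus strand, the second within the span of the long non-coding RNA gene Mir22hg. miR-222-3p at chrX:19146901-19146923 and miR-221-3p at chrX:19146307-19146329 are neighbours on the minus strand. miR-106b-5p and miR-93-5p both lie within the span of Mcm7 on chromosome 5, and miR-21a-5p within that of Vmp1 on chromosome 11. A RefSeq mature sequence was found for 288 of the 366 members (78.7%), too few for a check of base composition.

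The 3 control arrays were not alike in quality, and 2 of them stood apart in different ways. In the order 24, 48 and 72 h, the median local background was 101, 181 and 100. At 72 h, 709 of 15840 spots had a local background over 2 times the array median, against 3 at 24 h and 26 at 48 h. Such spots belonged to 35 members at 72 h, and some gave intensities far below 0. The array carries its full set of probes as 2 copies, in blocks 1 to 18 and in blocks 19 to 36, with 2 of the 4 spots of every member in each copy. Among members with an intensity of at least 100, the second copy was at least 4-fold below the first for 11 of 286, 24 of 244 and 12 of 265 in that order, and at least 4-fold above it for 0, 10 and 10. Over the members, Pearson's r between the copies was 0.93, 0.77 and 0.76.

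**Figure D1:**
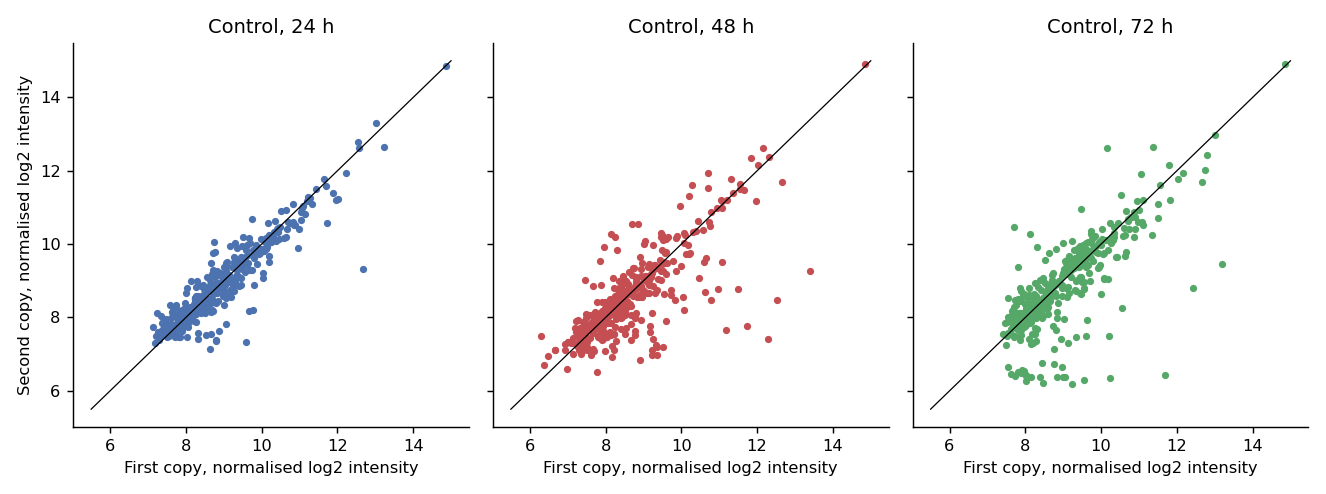
Normalised log2 intensity of the 366 members in the first copy of the probe layout (x axis) and in the second copy (y axis), 1 panel per control array, with the line of equality. The points at 24 h lie close to the line, those at 48 h spread to both sides, and at 72 h a band of probes lies near the bottom of the second copy.

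Probes that read no miRNA of the mouse moved with the arrays too. Of 62 spike-in control probes, 27 were at least 50 at both 24 and 72 h. Their median intensities were 405.5, 138.5 and 477.5, and 22 of the 27 were lowest at 48 h, 11 of them by at least 2-fold. Of 23 probes for other small RNAs, 11 were at least 50 at both 24 and 72 h. Their medians were 555, 282 and 660, with 8 lowest at 48 h, 6 of them by at least 2-fold. Both sets were picked by their 24 and 72 h values, which partly fixes that they are low at 48 h. Of 311 members picked in the same way, 181 were lowest at 48 h, 66 of them by at least 2-fold. The medians of these members were 301.75, 201.5 and 278. The probe of the small nucleolar RNA SNORD2 gave 7982, 1502.5 and 6253.5, whereas that of 5S rRNA gave 1883, 2523 and 917. Whether the spike-in RNAs were added to these samples is not given in the sources used here. The part of the spike-in level, the background and the copies in the differences described below was not tested.

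In the marker lists, probes of epithelial miRNAs were mostly at background in this carcinoma line. Of 11 epithelial and intestinal markers, 9 were not members, among them miR-200a-3p, miR-200b-3p, miR-141-3p and miR-429-3p of the miR-200 family, which keeps epithelial cells from turning mesenchymal, and the intestinal miR-192-5p, miR-194-5p and miR-215-5p. The intensities of these 9 ran no higher than 18.75, the value of miR-200b-3p at 24 h. miR-200c-3p gave 114, 174 and −64.75, with 2 of 4 spots of high local background at 72 h. miR-375-3p gave 131, 206.5 and 544. All 7 markers of fibroblasts and smooth muscle were members, led by miR-199a-5p, but only 4 reached 50 on all 3 arrays. Of the rest, the shared probe of miR-199a-3p and miR-199b-3p gave 257.5, −27.25 and 497.25. miR-143-3p gave 68.5, −60.75 and 590, and miR-145a-5p gave 42.25, 67.25 and 55.75. Of 8 blood cell markers 3 were members. miR-142-3p, which is known as a haematopoietic miRNA, gave 1754 and 1008 at 24 and 48 h. At 72 h its spots read −478, −265, 2638 and 2738, of which 2 had high local background, while miR-223-3p, miR-451a and miR-144-3p were all below 50. Of 8 neuron, muscle and liver markers 4 were members, at most at 185.25, the value of miR-124-3p at 24 h, and the liver miRNA miR-122-5p was below 0 throughout. In a bulk sample, fewer cells of a type and less RNA per cell cannot be told apart.

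The signal ranking was headed on all 3 arrays by miR-5100, a late registry entry without a settled function. It gave intensities of 23485, 45986 and 26078, which made up 11.4%, 21.8% and 13% of the summed intensity of the members. As the brightest probe it was set to the same normalised log2 value, 14.88, on every array, so its own difference between times cannot be read. The 15 brightest probes together took 36.7%, 47.3% and 38% of the summed intensity. Behind miR-5100 followed, by mean normalised log2 intensity over the 3 arrays, miR-3963 with 12.62, 12.13 and 12.62, miR-709 with 12.84, 12.44 and 11.88, and the shared probe of miR-3096a-3p and miR-3096b-3p with 11.97, 12.32 and 12.44. These 4 leading probes stayed among the 8 brightest at every time.

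Among the well-studied miRNAs, miR-125b-5p, a repressor of p53 and of pro-apoptotic genes, ranked 5 with 12.53, 11.51 and 12.25 (SD 0.53 over the 3 times). Its 4 spots at 48 h fell into 2 pairs, with 438 and 597 in the second copy and 9489 and 11061 in the first, so that its rank at 48 h depends on the copy. miR-21a-5p, the miRNA most often raised in carcinomas and a repressor of Pdcd4, gave intensities of 1741, 4675 and 1567, and ranked 21, 4 and 25. miR-199a-5p, a mesenchymal miRNA, gave 2706, 4414 and 2512 and ranked 9, 6 and 33, with 2 of its 4 spots at 72 h in high local background. miR-30c-5p, of the miR-30 family, gave 2417, 913 and 3260.5 and ranked 12, 40 and 9. The order was thus close at 24 and 72 h and looser at 48 h. Of the 15 brightest members, 13 were shared by 24 and 72 h, 7 by 24 and 48 h and 6 by 48 and 72 h. Of the 100 brightest, 77, 67 and 64 were shared.

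The other 7 of the 15 leading probes were miR-690, miR-5117-3p, miR-2137, miR-1900, miR-3084-5p, miR-3098-3p and miR-767. miR-690 had the widest span of the 15, with 13.26, 11.33 and 11.65 and an SD of 1.04. It ranked 2 at 24 h and then 14 and 10. miR-767 held 10.69, 11.22 and 11.08 and miR-2137 11.13, 11.61 and 10.9, so both varied little. The probes miR-5097 to miR-5136 and miR-1895 to miR-1983, late registry entries some of which overlap structural RNAs or repeats, had 36 members of 114 on the array. They summed to intensities of 43486, 69147 and 42876.5, most of it from miR-5100.

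**Figure D2:**
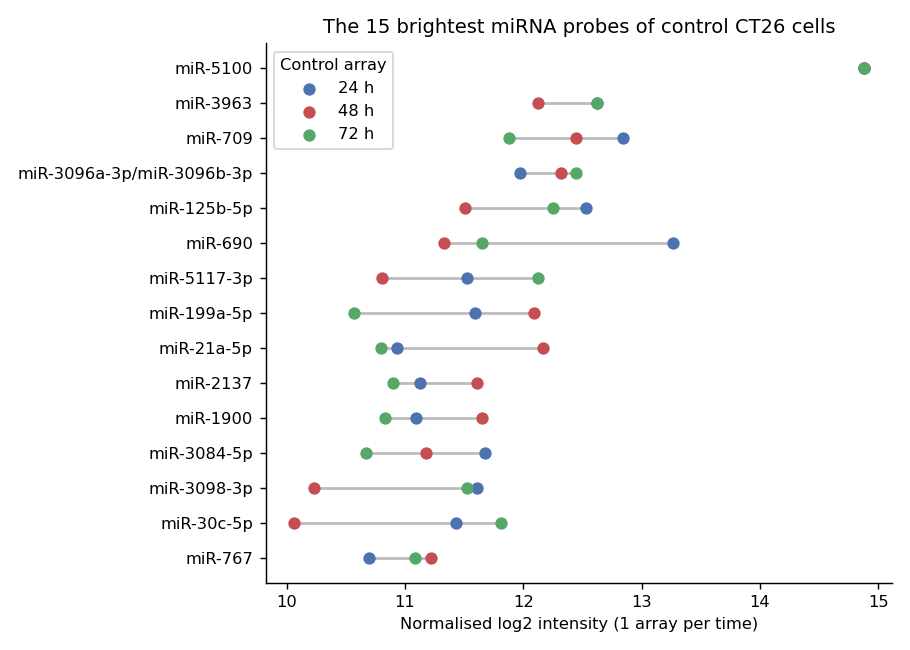
Normalised log2 intensity (x axis) of the 15 members with the highest mean over the 3 control arrays, among those with an intensity of at least 50 on all 3. Each point is 1 array and the grey line spans the 3. miR-5100 holds 14.88 on every array, and miR-690 and miR-30c-5p span the widest ranges.

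The 24 and 72 h arrays resembled each other more than either resembled the 48 h array. Over the 366 members, Pearson's r of the normalised log2 intensities was 0.84 between 24 and 72 h, 0.70 between 24 and 48 h and 0.57 between 48 and 72 h, and Spearman's rho was 0.79, 0.56 and 0.48. Probes on 1 array share its background and normalisation, so these values are descriptions. On the 233 members with at least 50 on every array the r was 0.91, 0.72 and 0.72. The 48 h control array correlated more with the 24 h knockdown array (r = 0.85) than with either control array, and the 24 h control array about as much with the 48 h knockdown array (r = 0.86) as with the 72 h control array. The 72 h arrays of the 2 lines had an r of 0.46.

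From 24 to 48 h, 50 members were at least 2-fold lower (13.7% of 366) and 32 at least 2-fold higher (8.74%). From 48 to 72 h, 66 were at least 2-fold higher (18%) and 39 at least 2-fold lower (10.7%). Over the whole span from 24 to 72 h, 19 were higher (5.19%) and 25 lower (6.83%). The median difference was -0.27 log2 units from 24 to 48 h, 0.22 from 48 to 72 h and 0.05 from 24 to 72 h, while the median standard error over the spots was 0.16, 0.19 and 0.14. That error covers spot noise only. Each time had 1 array, and these counts have no replicate check. With each array scaled to its median in place of quantile normalisation, the medians of all members were -0.38, -0.56 and -0.87, and the counts became 19 higher and 68 lower from 24 to 48 h, 22 higher and 105 lower from 48 to 72 h, and 3 higher and 151 lower from 24 to 72 h. Without any scaling they were 44 higher and 34 lower, 50 and 31, and 25 and 9. Up or down is therefore always relative to the other probes of the array.

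On the 233 members with at least 50 on every array, 27 were at least 2-fold lower at 48 than at 24 h (11.6%) and 22 higher (9.44%). From 48 to 72 h, 33 were higher (14.2%) and 16 lower (6.87%). From 24 to 72 h only 4 were higher (1.72%) and 7 lower (3%). Counted by array, 39 of the 366 members were at least 2-fold lower at 48 h than at both other times and 18 at least 2-fold higher. The rule keeps probes dim on a single array and drops those bright on a single array, which favours the lower counts. For 72 h the counts were 20 and 13, and for 24 h 3 and 1. No member was at least 2-fold higher, or lower, at both steps in turn. In all, 229 members, and 161 of the 233, stayed within 2-fold over the 3 arrays.

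Because the 2 copies of the layout disagreed for some probes, the differences were computed in each copy alone. From 24 to 48 h, 36 members were at least 2-fold lower and 16 at least 2-fold higher in both copies. From 48 to 72 h, 46 were higher and 7 lower in both, and from 24 to 72 h, 9 were higher and 4 lower. In both copies, 27 members lay at least 2-fold lower at 48 h than at 24 and at 72 h, and 6 lay at least 2-fold higher. These 33 members were picked after their values were seen. Of the 27, 18 had at least 50 at 24 and 72 h only, which partly fixes that they are low at 48 h. Probes with at least 50 at 48 h alone were left out by the rule, so the 27 and the 6 cannot be weighed against each other.

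**Figure D3:**
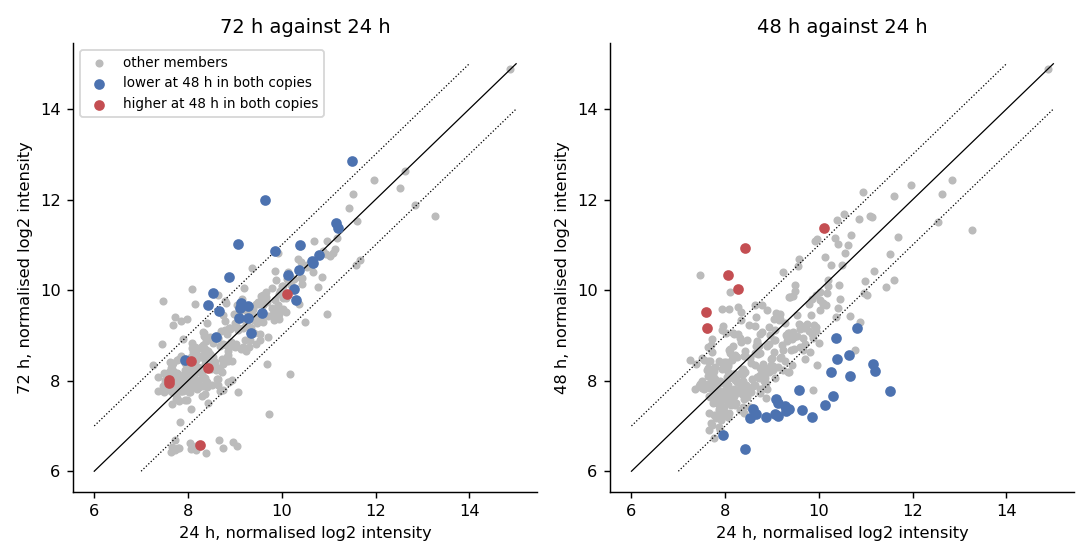
Normalised log2 intensity of the 366 members on the 72 h array (left) and the 48 h array (right) against the 24 h array, with the line of equality and 2-fold limits (dotted). Blue points are the 27 members at least 2-fold lower at 48 h than at both other times in both copies of the layout, red points the 6 at least 2-fold higher. All blue points lie below the lower 2-fold limit at 48 h and none does at 72 h.

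Several members of the seed family of miR-15 and miR-16, which represses cyclins and Bcl2, were low at 48 h. Of those low, only miR-195a-5p had at least 50 on all 3 arrays. miR-195a-5p gave intensities of 1999, 177 and 2532.5 at the 3 times. miR-16-5p gave 940.5, 1.75 and 984. At 48 h both were far below the other 2 arrays. miR-195a-5p lay 2.80 log2 units lower at 48 than at 24 h (spot SE 0.16), which is -3.04 in the first copy and -2.63 in the second, and 3.12 higher at 72 h. For miR-16-5p, which was not above 50 at 48 h, the difference was at least 5.86-fold at the first step and at least 6.67-fold at the second. miR-15b-5p and miR-15a-5p, both below 50 at 48 h, lay at least 2.89-fold and at least 3.41-fold lower at 48 than at 24 h. miR-16-5p, miR-15a-5p and miR-15b-5p entered the set through the 24 and 72 h arrays alone, so that their low value at 48 h is partly fixed by the rule. Among the other members of the family, miR-497-5p, for which no RefSeq sequence was matched, gave 51.5, −73.75 and 186.5, a difference of at least 1.05-fold at the first step and of at least 1.71-fold at the second. miR-503-5p gave 264, 246 and 91.5 with 2 spots of high local background at 72 h. miR-322-5p, which has the seed of miR-15 and miR-16, went the other way with 9, 179.25 and 0.75. It reached 50 at 48 h alone, so the rule left it out.

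The miR-17 seed family, which comes from the oncogenic miR-17-92 cluster and its paralogues and favours cell cycle entry, also gave low values at 48 h. miR-106b-5p gave 367, −29 and 2794, miR-93-5p gave 440.5, 1 and 540, and miR-106a-5p gave 242, −10.75 and 297.5. None of these 3 was above 50 at 48 h. They entered the set through the 24 and 72 h arrays alone, so their low value at 48 h is partly fixed by the rule. miR-106b-5p lay at least 2.79-fold lower at 48 than at 24 h and then at least 10.8-fold higher at 72 h. Its value at 72 h differed between the copies, with 733.5 in the first and 4854 in the second. miR-20a-5p gave 835.5, 746 and 756.5 with the copies on opposite sides, and miR-17-5p was close to the limit throughout. Of the 13 probes of the cluster and its paralogues 7 were members. From 24 to 48 h, the same 3 were at least 2-fold lower and none higher, beside 13.7% and 8.74% of all members. miR-19a-3p, miR-19b-3p and miR-18a-5p of the same clusters were not members.

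let-7 divided within 1 seed. let-7a-5p gave intensities of 193, 1544.5 and 135, while let-7g-5p gave 1413, 134 and 1380. let-7a-5p was thus high and let-7g-5p low on the 48 h array. The difference from 24 to 48 h was 2.51 log2 units for let-7a-5p (spot SE 0.08, and 2.41 in each copy) and -2.56 for let-7g-5p (spot SE 0.34, with -2.20 and -2.89 in the copies). let-7c-5p, 1 base from let-7a-5p, gave 735, 1805 and 553.5, a difference of 1.16. let-7d-5p gave 733, 54.25 and 634, a difference of -2.08, and let-7i-5p gave 806, 302 and 756.5. let-7e-5p was steady at 1388, 1695.5 and 1243.5. let-7b-5p cannot be placed: at 48 h its spots read 3321 and 3523 in the first copy and 55 and 62 in the second. Over all spots, 2 of the 7 members were at least 2-fold higher and 4 lower at 48 h than at 24 h. The shares over all members were 8.74% and 13.7%. The 4 include let-7b-5p, whose copies part. None of the 7 differed by 2-fold between 24 and 72 h. The family median of -1.13 from 24 to 48 h became 0.07 in the first copy alone.

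**Figure D4:**
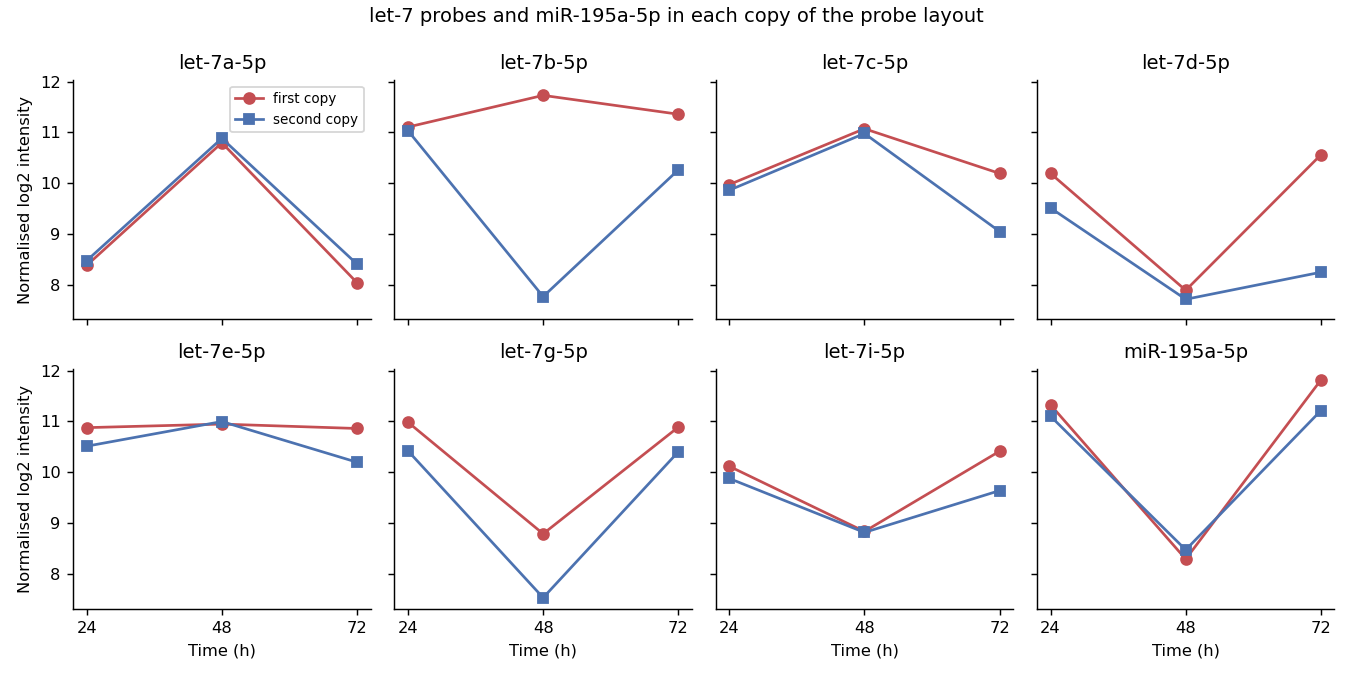
Normalised log2 intensity (y axis) of the 7 let-7 members and of miR-195a-5p at 24, 48 and 72 h (x axis) in the first (red) and second (blue) copy of the probe layout, 1 array per time. let-7a-5p peaks and let-7g-5p and miR-195a-5p dip at 48 h in both copies, while the copies of let-7b-5p part.

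Further low values at 48 h came from miRNAs tied to stress and proliferation. miR-22-3p gave 2043, 140 and 2305, a difference of -2.99 log2 units and then of 3.17, and was the largest of both steps among probes above 50 on both arrays. miR-210-3p, the main miRNA induced by hypoxia-inducible factor, gave 707, −38.75 and 1762, at least 4.84-fold lower and then at least 9.78-fold higher. miR-222-3p and miR-221-3p, which repress the cell cycle inhibitor p27, gave 596, −16.75 and 3656.5, and 221, −41.5 and 677. Neither was above 50 at 48 h, and both were higher at 72 h than at 24 h. For miR-222-3p the second step was at least 21.2-fold. miR-34a-5p and miR-34b-5p, transcriptional targets of p53, gave 312, −39.75 and 1122, and 203, −109.5 and 533. Both were below 50 at 48 h and highest at 72 h. In the same lists, miR-34c-5p gave 119.5, −22.5 and 184 and miR-212-3p gave 144.5, −0.5 and 83.75. These were within 2-fold from 24 to 48 h after normalisation, and miR-132-3p was not a member. Both probes of the miR-221 and miR-222 cluster were members, as were 3 of 6 of the list of miR-34 with miR-192, miR-194 and miR-215 and 3 of 4 of the hypoxia and stress list. Of these 8, all but miR-22-3p entered through the 24 and 72 h arrays alone, so a count of those low at 48 h would be partly fixed by the rule.

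miR-23a-3p, encoded with miR-27a and miR-24-2, gave 1207, 231 and 2057, and its partner miR-24-3p gave 1409, 1055 and 1016.5 with the copies apart at 48 h (2072.5 in the first and 37 in the second). miR-23b-3p, from a paralogous cluster, gave 1138, 1936 and 933, with a difference from 24 to 48 h of -0.36 in the first copy and 1.41 in the second. Of these clusters' 5 members, 2 were at least 2-fold lower and none higher from 24 to 48 h. All 5 miR-30 probes were members, and 2, miR-30b-5p and miR-30c-5p, were at least 2-fold lower at 48 than at 24 h. miR-30b-5p, which entered through the 24 and 72 h arrays alone, gave 399, 31 and 456. miR-30d-5p gave 415, 201 and 716 and was within 2-fold from 24 to 48 h after normalisation. At 72 h 3 of the 5 were at least 2-fold above 48 h. In the group of miR-10, miR-99 and miR-125 with miR-100 5 of 7 probes were members, 1 higher and 2 lower at 48 h by 2-fold. The 2 include miR-125b-5p, which was 0.84 log2 units higher in the first copy alone. Among the probes of miR-26, miR-103 and miR-107 3 of 4 were members, 1 higher and none lower. Of all members, 8.74% were at least 2-fold higher and 13.7% lower from 24 to 48 h, and 18% were higher from 48 to 72 h.

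In both copies, 6 members were high at 48 h. Probes with at least 50 at 48 h alone had been left out by the rule. miR-193b-3p, which in human cells represses uPA and cyclin D1, gave 114, 1067 and 161.5, a difference of 2.28 log2 units (spot SE 0.04) and then of -1.92. miR-2183 gave 43.75, 581.5 and 80.25, and miR-3072-5p gave 44.25, 421 and 91.5. miR-290-5p, of the embryonic miR-290-295 cluster, gave 912, 2330 and 656.5. The other 4 members of that cluster were within 2-fold over the 3 arrays, as were 229 of all 366 members. miR-142-5p gave 157, 857 and −292, but 2 of its 4 spots at 72 h had high local background. Single probes that were high at 48 h in 1 copy more than in the other included miR-328-3p, with 1758 in the first and 331.5 in the second. miR-484 gave 93.25, 647 and 155 and was high in both, by 1.37 and 2.01 log2 units.

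A slower drift from 24 to 72 h was seen in few members. In the miR-29 family, which represses collagens and DNA methyltransferases, miR-29a-3p gave 1260, 1295 and 394, miR-29b-3p 640, 466.25 and 153, and miR-29c-3p 192, −25.25 and 66. The first was level until 48 h and then lower, and the second was lower at each step over all spots, though not in each copy alone. From 24 to 72 h the differences of miR-29a-3p and miR-29b-3p were at least 2-fold in both copies. miR-665-3p was lower at both steps with 370, 108 and 52, and miR-709 with 6553, 5267 and 3400.5. miR-3084-5p had a difference of -0.50 log2 units at each step. In the other direction, miR-1231-3p gave 118.5, 620.5 and 729, miR-375-3p 131, 206.5 and 544, miR-24-1-5p 250, 446 and 643, and miR-668-3p 479, 795 and 1133.5. All 4 were lowest at 24 h and highest at 72 h. With the arrays scaled to their medians, the second step of miR-1231-3p, miR-24-1-5p and miR-668-3p took the other sign.

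The steadiest members, apart from miR-5100, were miR-350-3p, miR-3572-3p, miR-29b-1-5p, miR-5097 and miR-335-3p, each within 0.07 log2 units over the 3 times. miR-3572-3p gave 762, 810 and 651, and miR-335-3p, within the span of the gene Mest, 733, 755 and 574. For miR-29b-1-5p this steadiness is an average of unlike spots, with 750 in 1 of its spots at 48 h and 13, 28 and 40 in the others. miR-31-5p, often raised in colorectal tumours, gave 1143, 879 and 1348.5. Of 9 colorectal cancer miRNAs 2 were members, miR-21a-5p and miR-31-5p. miR-135b-5p, miR-155-5p, miR-182-5p, miR-183-5p, miR-96-5p and both miR-196 probes were not.

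The intronic cluster of Sfmbt2 (miR-297, miR-466, miR-467 and miR-669) had 27 members of 69, beside 366 of all 1126 mouse miRNA probes. From 24 to 48 h, 1 of the 27 was at least 2-fold higher and 3 lower, beside 8.74% and 13.7% of all members. The median of the 27 was -0.51, against -0.27 over all members. The imprinted Dlk1-Dio3 cluster had 8 members of 50. All 8 were within 2-fold from 24 to 48 h, as were 284 of all 366 members. From 48 to 72 h 2 were at least 2-fold lower, beside 10.7% of all members. From 24 to 72 h 1 was higher and 3 were lower, beside 5.19% and 6.83%. The 2 lower at the second step, miR-667-3p and miR-770-3p, were below 0 at 72 h with 2 and 1 spots of high local background. In the 42 hairpins with both arms among the members, the arms had the same sign from 24 to 48 h in 24 and from 48 to 72 h in 25. Pearson's r of the arms' differences was 0.01 and 0.18 over these 42 pairs, as a description. Probes for 1 RNA could also part. The probe named miR-3096a-3p alone gave 2689, 47.25 and 5695 and was the lowest of all at 48 h relative to 24 h, while the probe that carries this name together with miR-3096b-3p gave 3824.5, 5168.5 and 4464.

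No member passed the tests that the design allows. A slope per day in the control arrays, fitted in limma on all 6 arrays with a slope for each line, called 0 of 366 members at a Benjamini-Hochberg adjusted p of 0.05, with 4 at an unadjusted p under 0.05, all lower with time. The smallest p was that of miR-124-3p (adjusted p = 1), which gave 185.25, 135.75 and −441.5 with 2 spots of high local background at 72 h. Intensities below 50 entered these fits as measured, so for such probes a fitted difference is not a measured size. A limma model in which the 3 knockdown arrays gave the spread and each control array was compared as 1 value also called 0 in each contrast. At an unadjusted p under 0.05 there were 12 for 48 against 24 h, 33 for 72 against 48 h, 13 for 72 against 24 h and 31 for 48 h against the mean of the other 2 times. The smallest adjusted p was 0.957, 0.119, 1 and 0.361. This model assumes that single control arrays vary like the knockdown arrays, whose times are counted there as noise. The median half-width of the 95% interval was 2.09 log2 units for a contrast of 2 arrays.

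The probes with the smallest p in those contrasts were miR-26a-5p, miR-133a-3p and miR-34b-5p for 72 against 48 h. miR-34b-5p, not above 50 at 48 h, was at least 4.27-fold higher at 72 h. miR-26a-5p gave 50.5, 268 and −523 and miR-133a-3p 55.5, 82.5 and −180, and they had 2 and 1 spots of high local background at 72 h. let-7a-5p had an interval from 0.39 to 4.63 for 48 against 24 h (adjusted p = 0.957 in limma). Leaving out the 48 h knockdown array let 15 members pass for 72 against 48 h, miR-222-3p, miR-210-3p and miR-34b-5p among them, and 9 for 48 h against the mean of the others. Leaving out the 24 h control array, which makes the slope the difference of 2 arrays, let 15 pass for the slope, and leaving out the 48 h control array 1, miR-133a-3p. In the first copy alone, 2 passed for 72 against 48 h, miR-5121 and miR-497-5p.

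The knockdown arrays showed the members apart at 48 h in another order. For the 27 members low at 48 h in both copies, the median intensity on the control arrays was 563, 1.75 and 720, and on the knockdown arrays 149, 1117 and 65.75. All 27 were higher on the 48 h knockdown array than on both other knockdown arrays, as were 145 of all 366 members. miR-22-3p had normalised log2 values of 9.59, 11.08 and 8.41 there, and miR-16-5p 8.51, 10.35 and 7.65. The 27 spike-in control probes had medians of 256, 924 and 277 on the knockdown arrays. By median they too were highest on the 48 h knockdown array and lowest on the 48 h control array. Their pick by the 24 and 72 h control values partly fixes the low value on the 48 h control array. Of the 6 members high at 48 h in the control, 4 were lowest at 48 h in the knockdown. The share of all members lowest there was not counted, so this number has no base. Among the 4, miR-290-5p was barely lowest, with normalised log2 values of 9.96, 9.92 and 11.99. Across all 366 members, the knockdown difference from 24 to 48 h had a Pearson's r of -0.49 with that of the control, which uses other arrays, and from 48 to 72 h of -0.46.

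**Figure D5:**
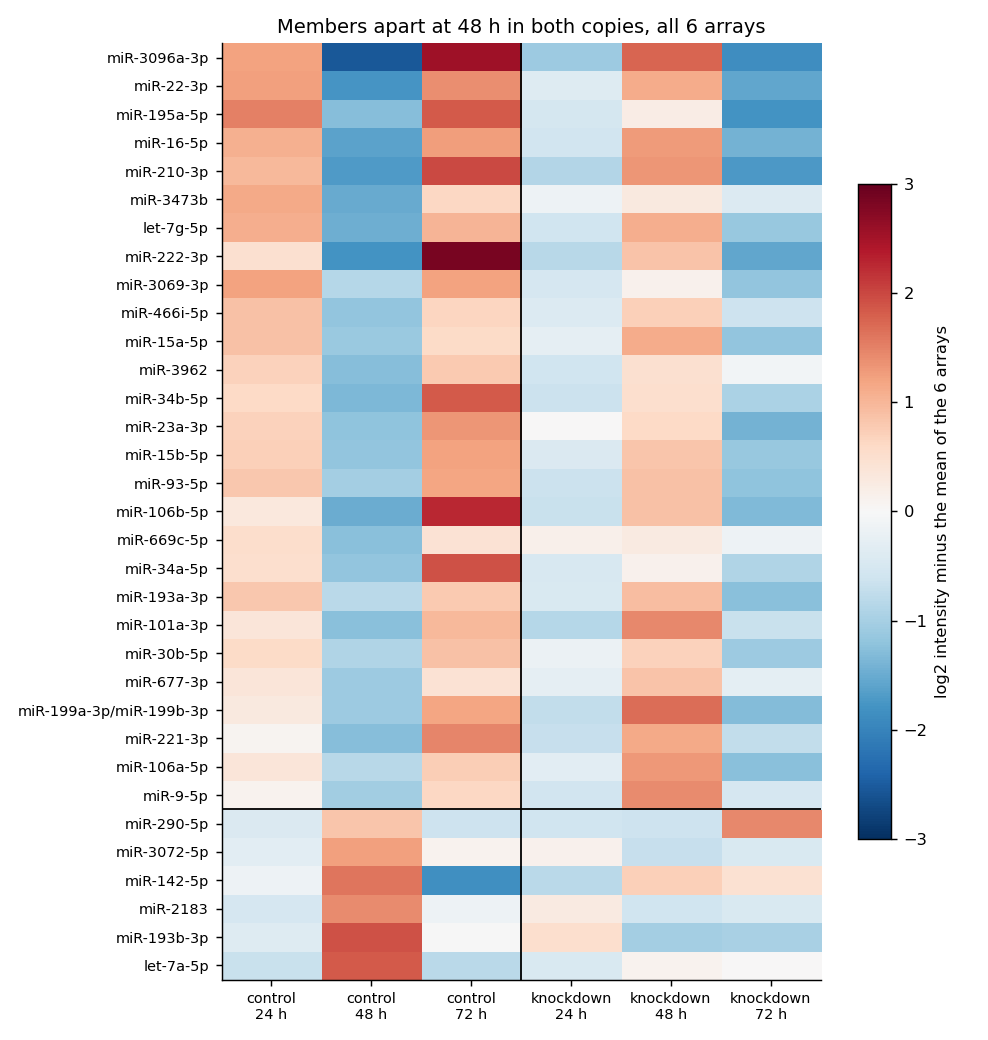
Normalised log2 intensity minus the mean of the 6 arrays for the 27 members lower (above the line) and the 6 higher (below the line) at 48 h in both copies, on the 3 control and 3 knockdown arrays. The upper group is low on the 48 h control array, and each of its members is higher on the 48 h knockdown array than on the other 2 knockdown arrays.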

How the data were processed

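RNA of 6 CT26 cultures was labelled with Hy3 and hybridised to 1-colour locked nucleic acid arrays, per the labels' protocols. The scanner files that the authors deposited list, per the file headers, each spot's intensity before and after local background subtraction, with no scaling between arrays stated. A second table deposited by the authors holds a ratio per probe, equal to the median background-subtracted intensity of its spots over 1 number per array (397, 313.5 and 368.5 for the control arrays), within a relative tolerance of 1e-06. The software and the basis of that number are not given in the sources used here.

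Background was corrected by normexp (offset 50) in limma 3.58.1 under R 4.3.3. The 4 spots were averaged on the log2 scale and the arrays quantile normalised over 3439 mouse, viral and unnamed probes. Tests were run in limma (trend, robust) over the 366 members, two-sided, with 2 residual degrees of freedom, after checks on simulated data. With 1 array per time, the number of arrays limits the precision. Where a side was below 50, the fold is given as "at least", computed against the lowest normalised value that a probe at 50 or more had on that array, or against the dim probe itself where it read higher. Alternatives covered scaling, background correction, filters, thresholds, left-out arrays, the median of the spots, spots of high local background and single copies of the layout, the last 3 added after the data were seen. Named miRNAs are the 15 brightest, the 6 largest differences per step and direction, the 6 largest in 1 direction throughout, the 6 steadiest, the 3 smallest p per test, up to 3 leading members of each of 20 lists, and the probes next to the limit. Others were named after their values were seen. Members and lists were chosen with earlier results of these data known. Names come from the array's probe list, where 10 members carry more than 1.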

Additional observations from a re-analysis of the deposited data

Results flagged for a closer look

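Probes outside the mouse miRNA set gave signal as well. Of 57 probes for viral miRNAs, 12 reached 50 at every time in the control line, above the negative controls, the brightest being mghv-miR-M1-8-5p with 2894, 4231 and 3483 in order of time. Of 2256 probes without a name, 435 did so. These were 21.1% of the viral and 19.3% of the unnamed probes, beside 233 of 1126 mouse miRNA probes. The limit of 50 was thus reached about as often by viral and unnamed probes as by mouse miRNA probes. The 7 negative control probes were all below 50 on these arrays.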

How the results depend on the processing

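Counts of members at least 2-fold apart depended on the scaling. With median scaling, 24 to 48 h had 19 higher, 48 to 72 h 22 higher and 105 lower, and 24 to 72 h 3 higher and 151 lower. With a floor of 50, 24 to 48 h had 56 higher and 109 lower, 48 to 72 h 103 higher and 24 to 72 h 42 higher. The authors' ratios gave 99 lower from 24 to 48 h and 35 higher from 24 to 72 h. From 24 to 72 h, 9 were lower without normalisation and 9 with cyclic loess. Members above 50 on all 3 arrays gave 27 lower, 33 higher, 16 lower, 4 higher and 7 lower in the order of the report. At 1.5-fold, 15.3% of the members were higher and 32.0% lower from 24 to 48 h, 29.2% and 16.7% from 48 to 72 h, and 13.1% and 12.6% from 24 to 72 h. At 4-fold these shares were 0.820% and 3.28%, 6.01% and 2.46%, and 0.546% and 1.37%. Without spots of high local background, added after the data were seen like the single copies, 22 were lower from 48 to 72 h and 7 from 24 to 72 h. First-copy spots gave 16 lower from 48 to 72 h, 11 higher and 8 lower from 24 to 72 h, and 2 calls for 72 against 48 h. Leaving out 1 array gave 0 to 15 calls for the slope, 0 to 15 for 72 against 48 h and 0 to 9 for 48 h against the mean. Of 132 list medians and differences of named members, 52 had another sign under at least 1 setting, of which 5 were at least 2-fold as reported. Among these 5 the sign turned for the let-7 median from 24 to 48 h (0.070 in the first copy), miR-125b-5p at that step (0.84 in the first copy), and from 48 to 72 h for miR-5117-3p (-0.37 in the first copy), miR-199a-5p (0.43 without spots of high local background, 0.40 in the first copy) and miR-328-3p (0.18 in the second copy). Their cause was not tested. Pearson's r between arrays was 0.859 and 0.806 without the filter and 0.722 on members above 50 on all 3 arrays. No paired analysis was possible because the comparison is between times within 1 line, with 1 array each, and a block on time would remove it. The labels give no replicate numbers. Fewer mouse miRNA probes reached 50 at 48 h, 321 against 374 at 24 h and 351 at 72 h, which limits what could be measured there. That array was not dim throughout. In order of time, the array's Hy3 spots averaged 5845, 15372 and 6877, and the members summed to 205834, 210634 and 200812.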
